A study of Mus musculus with 6 samples.

Results

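The 44 genes described here are cyclins, cyclin-dependent kinases, mitotic kinases and genes of the spindle and of cytokinesis, taken from a written list and found by symbol among the 55416 gene identifiers of the expression tables. They fall into 6 groups by role. The G1 cyclins and kinases number 9 (Ccnd1, Ccnd2, Ccnd3, Cdk4, Cdk6, Ccne1, Ccne2, Cdk2, Cdc25a), and the E2F factors and pocket proteins number 5 (E2f1, E2f2, E2f3, Rb1, Rbl1). The other 30, called the later genes below, act in S phase, G2 or mitosis. They are 7 G2/M cyclins, phosphatases and regulators, 10 mitotic kinases and genes of the spindle checkpoint and the anaphase-promoting complex, 5 chromosome and kinetochore genes, and 8 spindle and cytokinesis genes.

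RNA was sequenced from mouse small intestinal organoids, epithelial cultures grown in Matrigel from mice 4 to 8 weeks old. Every group, the control included, carried Rosa26-rtTA as Tg/Tg together with Col1A1-TetO-OSKM, also Tg/Tg, so that doxycycline switches on a cassette of Pou5f1 (Oct4), Sox2, Klf4 and Myc through a transactivator expressed from Rosa26. The control group is labelled with no dose. The low dose was 0.1 µg/ml and the high dose 0.5 µg/ml doxycycline, both given over 3 days, and there were 2 libraries in each of the 3 groups, described as biological replicates. No source used here says whether they came from separate mice or cultures, so the p-values below measure only the spread between these libraries. The question asked of the 44 genes is how the G1 genes compare with the mitotic genes as the dose rises.

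D-type cyclins bind Cdk4 or Cdk6 in G1, and these kinases phosphorylate the retinoblastoma family, which releases E2F factors to transcribe genes for DNA replication. E-type cyclins with Cdk2 carry the cell into S phase, and cyclin A and B-type cyclins with Cdk1 drive G2 and mitosis, when Foxm1 and the MuvB-type complexes switch on the mitotic genes. In the intestine the dividing cells sit in the crypt, as stem cells and their rapidly cycling progeny, and the mature absorptive and secretory cells have left the cycle.

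Library totals were 45289760 to 72547738 estimated counts. The 44 genes had between 663 counts (Cdc25c) and 43069 counts (Mki67) in a library, and all of them passed the filter on low counts. CPM values below are counts per library total after TMM scaling, and a gene is called where edgeR's quasi-likelihood test gave an adjusted p under 0.05 over the 16975 genes tested. The 4 factors rose with dose with no overlap between groups, and reads of a factor's own gene and of the cassette cannot be told apart: Pou5f1 lay at 0.14 to 0.243 CPM in control, 135.6 to 141.4 at 0.1 µg/ml and 485.7 to 511.8 at 0.5 µg/ml, and Myc at 43.8 to 45, 240.2 to 258.7 and 790.6 to 877.7 CPM. The 10 epithelial markers were all expressed, with a summed level of 3532 to 3535 TPM (a level scaled by transcript length) in control, 4007 to 4064 at 0.1 µg/ml and 4750 to 4974 at 0.5 µg/ml, where 5 of the 10 were called higher and 5 lower. Other marker sums moved with the groups. Of the 9 crypt base stem cell markers, 7 fell at 0.5 µg/ml, Ascl2 rose (log2 fold change 0.71) and Znrf3 was not called. These markers summed to 388.7 to 485.3 TPM in control, 163.6 to 221.9 TPM at the low dose and 91.6 to 92.1 TPM at the high dose. Secretory markers, of which 9 of 9 fell, summed to 4730 to 4828, 1662 to 1986 and 537.7 to 569.7 TPM, and absorptive markers, of which 7 of 10 fell, to 2884 to 3471, 3683 to 4674 and 1769 to 1804 TPM. These marker counts stand beside 34.4% called higher and 33.1% called lower among all genes tested at 0.5 µg/ml. Fibroblast markers summed to at most 4 TPM and endothelial markers to at most 1.41 TPM in any library, while 8 immune markers summed to 3.14 to 3.68 TPM in control and 14.6 to 14.8 TPM at 0.5 µg/ml, with Adgre1 at 0, as were Cdh5 and Emcn among the endothelial markers. The part of these shifts in the values below was not tested. In bulk RNA, fewer cells of a type and less RNA per cell cannot be told apart.

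At 0.5 µg/ml most calls among the G1, E2F and pocket protein genes were higher and most among the later genes were lower. Of the 14 G1, E2F and pocket protein genes, 7 rose, 4 fell and 3 were not called against control, with a median log2 fold change of 0.15. Of the 30 later genes, 3 rose (Cdc25b, Aurka and Anln), 21 fell and 6 were not called, with a median of -0.27, which is 1.20-fold lower. Among all genes tested, 34.4% were called higher and 33.1% lower at this dose, with a median of -0.00. The 70% of later genes that fell thus stand beside a background of 33.1%. The 14 earlier genes, with 50% called higher and 28.6% lower, lay closer to the shares of all genes. The plot of fold changes for all 44 genes shows 27 of the 30 later genes left of 0 at this dose and Ccnd1 farthest to the right, followed by Anln and Ccnd2. The median of the 14 earlier genes was smaller with upper quartile scaling (0.06) and on the TPM scale (0.05). Of their 7 rises, those of Ccne2, Cdc25a and E2f3 were not called on the TPM scale, while their 4 falls held in all 14 alternative settings. Higher calls were thus no longer the majority among these genes on the TPM scale. The sets were not tested against each other.

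**Figure D1:**
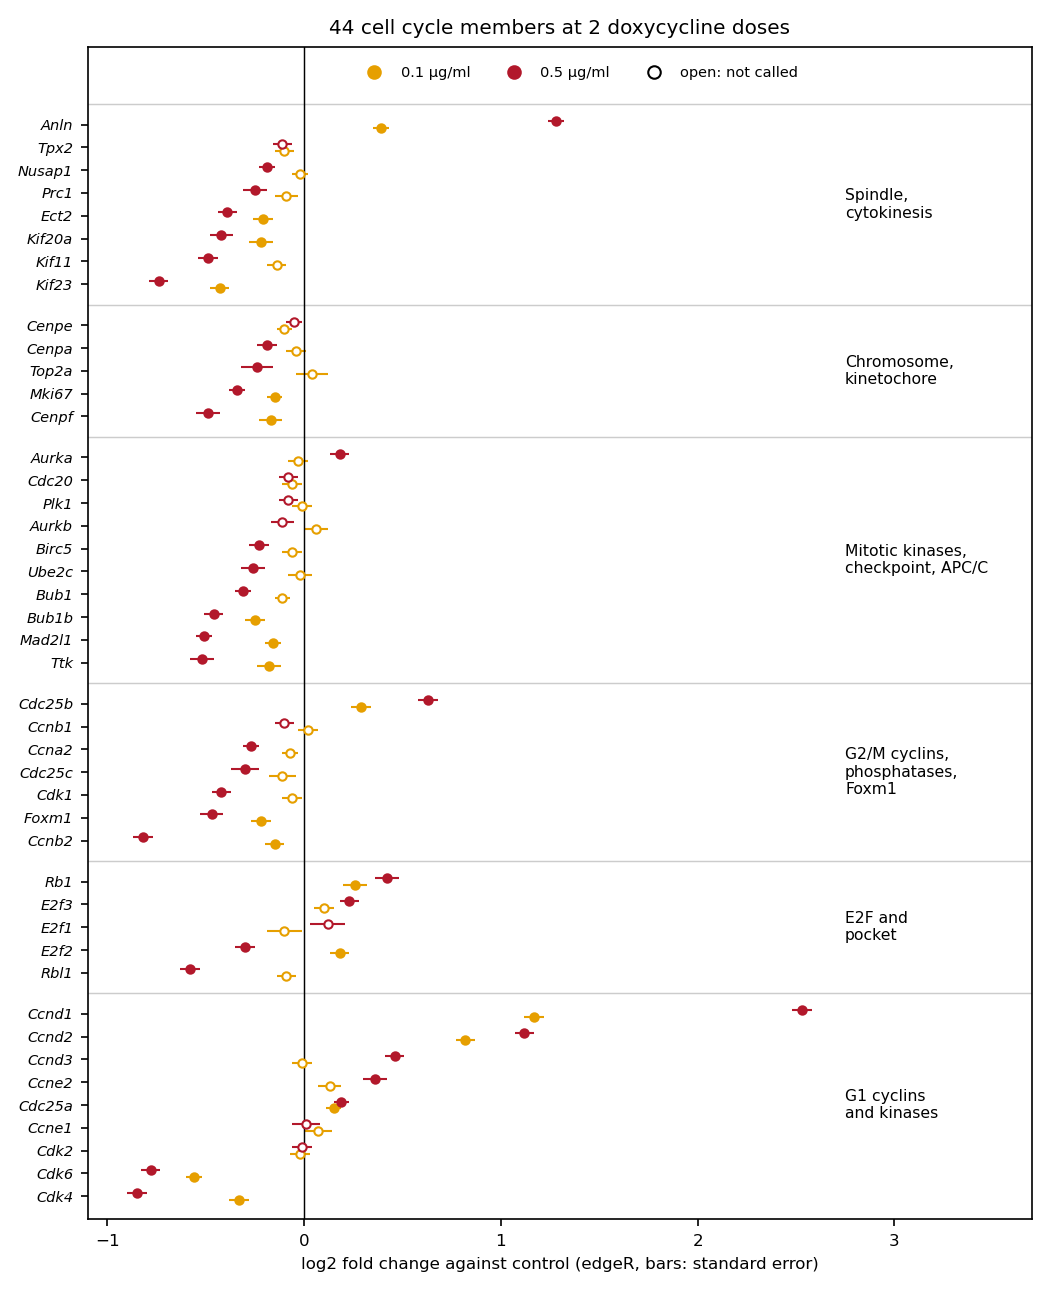
Log2 fold change against control of the 44 genes at 0.1 µg/ml (yellow) and 0.5 µg/ml (red), grouped by role, with bars for the standard error of the edgeR fit over 2 libraries a group. Filled points are called at an adjusted p under 0.05 and open points are not. Ccnd1 reaches 2.53 at 0.5 µg/ml, Anln is the highest of the later genes at 1.28, and Cdk4 is the lowest of all at -0.85.

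At 0.1 µg/ml the changes were fewer and smaller. Of the 14 G1, E2F and pocket protein genes, 5 rose and 2 fell, with a median log2 fold change of 0.08. Of the 30 later genes, 2 rose (Cdc25b and Anln) and 10 fell, with a median of -0.09. Over the whole table, 20.8% of genes were called higher and 13.8% lower, with a median of 0.02. These shares were 35.7% and 14.3% for the 14 earlier genes and 6.67% and 33.3% for the later genes. Over all 44 genes this gave 7 higher and 12 lower calls, which became 4 and 4 without the first 0.1 µg/ml library, and 4 and 8 without the first control library. The median of the earlier genes was 0.01 without the second 0.1 µg/ml library and -0.01 on the TPM scale, and that of the later genes was -0.15 without the second 0.1 µg/ml library. Calls that held in all 14 alternative settings at this dose were those of Ccnd1, Ccnd2, Cdk4, Cdk6 and Kif23. The comparisons of each dose with control share the control libraries, so they are given side by side and not as 2 independent results.

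Between the doses, 6 of the 14 G1, E2F and pocket protein genes were higher at 0.5 than at 0.1 µg/ml and 4 were lower, with a median log2 difference of 0.08. Of the 30 later genes 3 were higher and 23 lower, with a median of -0.19. Over the whole table, 29.8% were higher and 29.1% lower, beside 42.9% and 28.6% of the 14 earlier genes and 10% and 76.7% of the later genes. The 6 libraries of a gene could also be ordered by dose with no overlap between neighbouring groups. In that count 6 of the 14 earlier genes rose and 3 fell, and 2 of the 30 later genes rose and 15 fell, against 23.5% rising and 20.1% falling among all genes tested. The earlier genes that rose in order were Ccnd1, Ccnd2, Ccne2, Cdc25a, E2f3 and Rb1, and those that fell were Cdk4, Cdk6 and Rbl1.

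**Figure D2:**
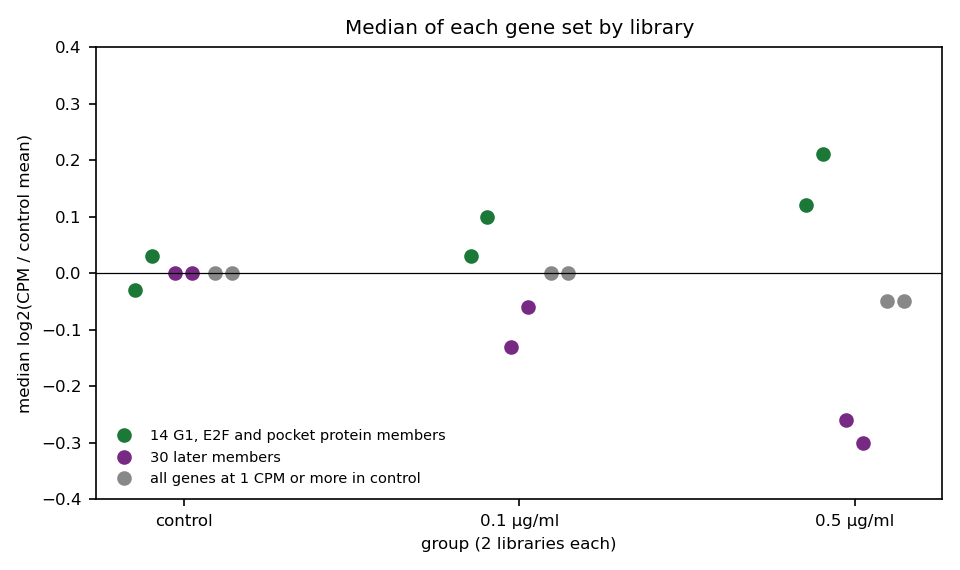
Median over each gene set of log2(CPM / control mean) in each library, with 2 libraries a group. The 14 G1, E2F and pocket protein genes (green) reach 0.12 and 0.21 at 0.5 µg/ml, the 30 later genes (purple) reach -0.26 and -0.30, and all genes at 1 CPM or more in control (grey) lie at -0.05 in both.

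Medians by library lay apart at both doses. The later genes had medians of -0.13 and -0.06 in the 0.1 µg/ml libraries and -0.26 and -0.30 in the 0.5 µg/ml libraries, relative to the control mean on the log2 scale. The G1, E2F and pocket protein genes had 0.03 and 0.10, then 0.12 and 0.21. At 0.1 µg/ml the lower of these values, 0.03, equals that of the second control library, so that set's median did not separate from control there.

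The promoters of 6 of the 44 genes are shown as examples. They belong to 2 later genes that fell (Ccnb2, Kif23), 2 that rose (Cdc25b, Anln), and 2 G1 genes that moved oppositely (Cdc25a, Cdk4). Each runs 5′ to 3′ along its gene, from 250 bases before the RefSeq transcription start to 50 bases after it, in build GRCm38.p6. Capitals mark matches, on either strand, to the CCAAT box (CCAAT), to the cell cycle homology region or CHR (TTTGAA or TTCGAA) that MuvB-type complexes are known to bind, or to an E2F element (as TTCCCGC, as TTGGCGC, as TTCGCGC or as TTGCCGC). The E2F letters TTGGCGC can overlap a CCAAT box on the other strand.
Ccnb2: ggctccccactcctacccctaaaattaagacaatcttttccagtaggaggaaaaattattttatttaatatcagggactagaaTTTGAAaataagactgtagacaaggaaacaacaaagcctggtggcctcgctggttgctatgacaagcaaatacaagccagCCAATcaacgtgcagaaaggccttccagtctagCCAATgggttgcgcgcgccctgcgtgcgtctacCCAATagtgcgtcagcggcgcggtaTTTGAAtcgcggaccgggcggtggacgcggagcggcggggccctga
Kif23: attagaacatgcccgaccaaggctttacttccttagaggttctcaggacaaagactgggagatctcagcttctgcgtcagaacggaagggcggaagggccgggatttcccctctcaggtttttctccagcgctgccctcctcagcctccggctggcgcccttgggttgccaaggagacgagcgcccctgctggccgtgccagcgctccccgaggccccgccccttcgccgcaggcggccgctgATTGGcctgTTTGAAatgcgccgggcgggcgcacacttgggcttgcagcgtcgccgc
Cdc25b: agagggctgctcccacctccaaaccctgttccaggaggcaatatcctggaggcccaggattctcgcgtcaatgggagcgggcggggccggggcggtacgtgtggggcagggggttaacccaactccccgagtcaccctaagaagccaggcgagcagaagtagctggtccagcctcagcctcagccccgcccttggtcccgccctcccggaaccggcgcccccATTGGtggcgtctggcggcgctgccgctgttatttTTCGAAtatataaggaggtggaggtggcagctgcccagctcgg
Anln: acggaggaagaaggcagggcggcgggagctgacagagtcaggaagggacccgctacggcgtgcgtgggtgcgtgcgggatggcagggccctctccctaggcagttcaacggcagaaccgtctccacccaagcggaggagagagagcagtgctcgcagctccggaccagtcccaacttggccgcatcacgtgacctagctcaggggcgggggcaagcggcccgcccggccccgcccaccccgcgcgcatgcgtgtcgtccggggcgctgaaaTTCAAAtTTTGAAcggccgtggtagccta
Cdc25a: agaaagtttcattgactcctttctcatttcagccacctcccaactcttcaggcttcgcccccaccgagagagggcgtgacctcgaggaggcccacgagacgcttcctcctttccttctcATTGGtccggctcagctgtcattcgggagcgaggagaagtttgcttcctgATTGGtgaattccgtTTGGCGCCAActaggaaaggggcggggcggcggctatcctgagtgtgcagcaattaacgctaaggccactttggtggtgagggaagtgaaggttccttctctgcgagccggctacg
Cdk4: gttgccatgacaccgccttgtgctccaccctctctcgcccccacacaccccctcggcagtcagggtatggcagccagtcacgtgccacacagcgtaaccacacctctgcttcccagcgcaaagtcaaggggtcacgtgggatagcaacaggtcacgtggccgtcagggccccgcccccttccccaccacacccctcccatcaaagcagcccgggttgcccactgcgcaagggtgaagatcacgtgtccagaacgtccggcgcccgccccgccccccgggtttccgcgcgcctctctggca

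The Ccnb2 promoter (chr9:70421505-70421804, minus strand) holds 3 CCAAT boxes and 2 CHR matches. The Kif23 promoter (chr9:61946750-61947049, minus strand) and the Cdc25b promoter (chr2:131186698-131186997, plus strand) hold 1 of each. The Anln promoter (chr9:22389157-22389456, minus strand) holds 2 CHR matches and no CCAAT box. The Cdc25a promoter (chr9:109875329-109875628, plus strand) holds 2 CCAAT boxes and 2 E2F matches that overlap each other on opposite strands, and that of Cdk4 (chr10:127063285-127063584, plus strand) holds none of these letters. A promoter was in the table for 34 of the 44 genes. A CCAAT box and a CHR stood together in 18 of 24 later genes (75%) and in 2 of 10 earlier genes (20%), against 6.99% of the tested genes and 8.6% of all 26742 genes in the table. E2F letters stood in 4 of the 24 later genes (16.7%) and 5 of the 10 earlier genes (50%), against 18.4% of the tested genes and 10.9% of all genes. Of the later genes that rose at 0.5 µg/ml, Cdc25b and Aurka have a CCAAT box and a CHR as Ccnb2 and Kif23 do, and Anln has the CHR only. The call of Aurka was lost in 7 of 14 alternatives. A match is a description of the letters and shows no binding.

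All 3 D-type cyclins, which receive growth signals in G1, rose at 0.5 µg/ml, Ccnd1 by the largest fold change of the 44 genes. Ccnd1 (cyclin D1) was at 75.7 and 79.4 CPM in control, 169.4 and 178.8 CPM at 0.1 µg/ml and 456.1 and 440.3 CPM at 0.5 µg/ml. The 3 groups did not overlap, and the log2 fold change against control was 1.17 ± 0.05 (SE) at 0.1 µg/ml (2.24-fold, edgeR adjusted p = 9.91e-08) and 2.53 ± 0.05 at 0.5 µg/ml (5.78-fold, adjusted p = 1.36e-10). Ccnd2 (cyclin D2) was at 327 and 339.4 CPM in control, 585.5 and 589.9 CPM at 0.1 µg/ml and 754.9 and 693.7 CPM at 0.5 µg/ml. Most of its rise was reached at the low dose: 0.82 ± 0.05 on the log2 scale at 0.1 µg/ml (adjusted p = 1.23e-06) and 1.12 ± 0.05 at 0.5 µg/ml (2.17-fold, adjusted p = 2.44e-08). Ccnd3 (cyclin D3) was at 60 and 63.5 CPM in control, 61 and 61.7 CPM at 0.1 µg/ml and 86.9 and 83.4 CPM at 0.5 µg/ml. At the low dose its libraries lay within the control range (log2 fold change -0.01, adjusted p = 0.898), and at the high dose both were above it (0.46 ± 0.05, 1.38-fold, adjusted p = 1.45e-05). Ccnd3 shares exon positions with Bysl on the opposite strand, which stood at a mean of 42.7, 46.5 and 70.2 CPM in the 3 groups. Bysl was not called at 0.1 µg/ml and rose at 0.5 µg/ml (0.72 ± 0.05, edgeR adjusted p = 6.28e-07), as Ccnd3 did. The part of Bysl reads in the rise of Ccnd3 was not tested.

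The kinase partners of these cyclins fell while the cyclins rose. Cdk4 and Cdk6, whose library values are given although the rule for named genes did not pick them, were the lowest of the 9 G1 genes at 0.5 µg/ml. Cdk4 was at 297.5 and 281.2 CPM in control, 225.8 and 236.1 CPM at 0.1 µg/ml and 164.7 and 156.1 CPM at 0.5 µg/ml. Each step down was free of overlap, with log2 fold changes of -0.33 ± 0.05 at 0.1 µg/ml (edgeR adjusted p = 6.00e-04) and -0.85 ± 0.05 at 0.5 µg/ml (1.80-fold lower, adjusted p = 1.88e-07). Cdk6 was at 108.3 and 113.7 CPM in control, 74.3 and 76.4 CPM at 0.1 µg/ml and 64 and 65.4 CPM at 0.5 µg/ml. Its fall was already -0.56 ± 0.04 at 0.1 µg/ml (adjusted p = 1.18e-05) and -0.78 ± 0.05 at 0.5 µg/ml (1.72-fold lower, adjusted p = 2.33e-07). The further step between the doses (-0.22, adjusted p = 0.00223) was absent from the TPM, where 10 and 11.4 TPM at 0.1 µg/ml overlapped 10.3 and 11 TPM at 0.5 µg/ml (limma log2 difference -0.01, adjusted p = 0.954). Cdk4 shares exon positions with Tspan31 on the opposite strand, and Tspan31 stood at a mean of 56.5, 60.7 and 57.5 CPM in the 3 groups and was not called.

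**Figure D3:**
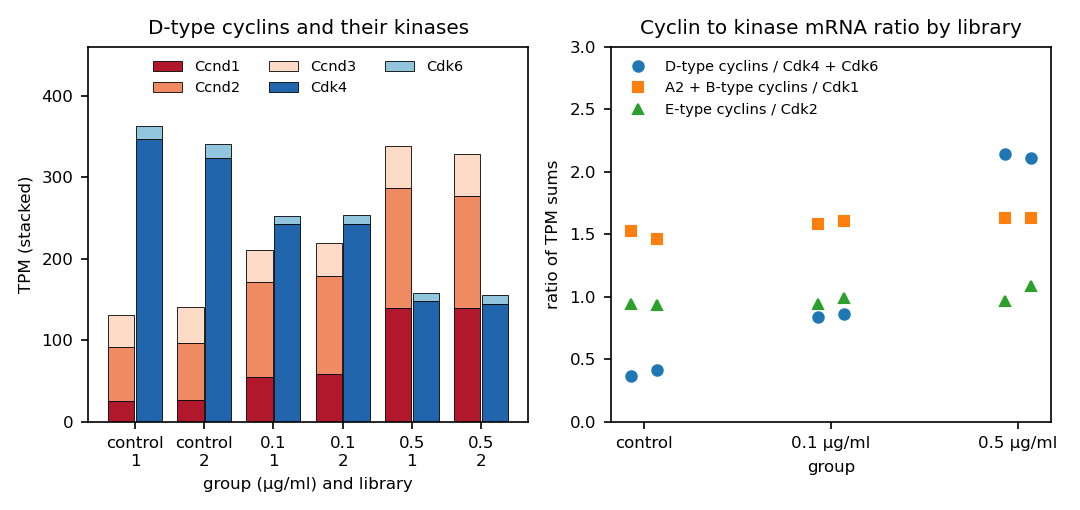
Left, stacked TPM of the D-type cyclins (reds) and of Cdk4 and Cdk6 (blues) in each of the 6 libraries. Right, ratios of summed TPM in each library: D-type cyclins to Cdk4 and Cdk6 (circles) go from 0.362 and 0.412 in control to 2.14 and 2.11 at 0.5 µg/ml, while A2 and B-type cyclins to Cdk1 (squares) and E-type cyclins to Cdk2 (triangles) stay between 0.938 and 1.63.

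TPM, which is scaled by transcript length, lets levels be compared between genes. The D-type cyclins together held 131.3 and 140.4 TPM in control, 211.4 and 218.8 TPM at 0.1 µg/ml and 338.8 and 329.1 TPM at 0.5 µg/ml. Over the same groups Cdk4 and Cdk6 together went from 362.7 and 341.1 TPM through 252.5 and 253.7 TPM to 158.4 and 155.8 TPM. The ratio of cyclin to kinase mRNA was thus 0.362 and 0.412, then 0.837 and 0.862, then 2.14 and 2.11. Kinase mRNA exceeded cyclin mRNA in control and at 0.1 µg/ml, and the order was turned at 0.5 µg/ml. Cdk4 fell further on the TPM scale, from a mean of 335.6 to 146.4 TPM, than in the counts (1.80-fold lower), so the size of the ratio depends on the scale. An exact permutation test of 2 libraries against 2 cannot give a p below 0.333, so no p is given for such ratios. Within the D-type sum, the share of Ccnd1 grew from 19 and 19.2% in control to 41.2 and 42.4% at 0.5 µg/ml, that of Ccnd2 went from 51.1 and 49.6% to 43.4 and 41.8%, and that of Ccnd3 from 29.9 and 31.2% to 15.4 and 15.8%. Ccnd1 therefore moved from the smallest share of the 3 in control to about the share of Ccnd2.

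The later cyclin and kinase pairs differed less between groups. The ratio of E-type cyclins to Cdk2 was 0.944 and 0.938 in the control libraries, 0.94 and 0.994 at the low dose and 0.969 and 1.09 at the high dose. The ratio of cyclins A2, B1 and B2 to Cdk1 was 1.53 and 1.46 in the control libraries, 1.58 and 1.61 at the low dose and 1.63 in both libraries of the high dose, so the groups did not overlap but the step was small. Both sides of that ratio were lower at 0.5 µg/ml, the cyclin sum going from 194.8 and 205 TPM in control to 144.7 and 150.2 TPM. The ratio of D-type cyclins to cyclins A2 and B accordingly went from 0.674 and 0.685 in control through 1.17 and 1.15 to 2.34 and 2.19. Summed over whole sets, the 30 later genes held 1500 and 1577 TPM in control and 1209 and 1249 TPM at 0.5 µg/ml, whereas the 14 earlier genes held 641.7 and 637.9 TPM and 642.9 and 634 TPM, with gains of cyclins offset by the loss of Cdk4.

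Among the other G1 genes, Ccne2 (cyclin E2) rose at 0.5 µg/ml, from 20.6 and 21.3 CPM in control to 27.4 and 26.4 CPM (log2 fold change 0.36 ± 0.06, edgeR adjusted p = 5.43e-04), and Cdc25a, the phosphatase that activates Cdk2, rose from 70.8 and 74.4 to 82.4 and 82.8 CPM (0.19 ± 0.04, adjusted p = 0.00424). These small rises were not called on the TPM scale with limma, where the adjusted p reached 0.396 for Ccne2 and 0.402 for Cdc25a. Upper quartile scaling also lost the call of Cdc25a (edgeR adjusted p = 0.0832). Ccne1 (cyclin E1) and Cdk2 were not called at either dose, with log2 fold changes of 0.01 ± 0.07 and -0.01 ± 0.05 at 0.5 µg/ml. The G1 genes as a group thus held 5 that rose, 2 that fell and 2 that were not called. Those shares, 55.6% higher and 22.2% lower, stand beside 34.4% and 33.1% of all genes tested.

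Of the E2F factors and pocket proteins, 2 rose, 2 fell and 1 was not called at 0.5 µg/ml, shares of 40% each way that lie near the 34.4% and 33.1% of all genes tested. The pocket proteins moved in opposite directions. Rb1, the retinoblastoma protein that holds back E2F factors, was at 58.7 and 60 CPM in control, 75.2 and 66.2 CPM at 0.1 µg/ml and 80.6 and 78.3 CPM at 0.5 µg/ml. It rose by 0.26 ± 0.06 on the log2 scale at 0.1 µg/ml (edgeR adjusted p = 0.00955) and 0.42 ± 0.06 at 0.5 µg/ml (1.34-fold, adjusted p = 1.68e-04), and the call at 0.1 µg/ml was lost without the first library of that dose or of control, with an adjusted p of up to 0.19 over the alternatives. Rbl1, a relative of Rb1 that acts with repressive E2F factors, was at 43.2 and 46.8 CPM in control, 42.1 and 42.5 CPM at 0.1 µg/ml and 30.3 and 30 CPM at 0.5 µg/ml. Only the high dose was called (-0.58 ± 0.05, 1.49-fold lower, adjusted p = 6.30e-06). E2f2, an activating E2F, went both ways: 100.1 and 101.7 CPM in control, 115.4 and 112.5 CPM at 0.1 µg/ml and 85.1 and 78.4 CPM at 0.5 µg/ml. Its fall at the high dose (-0.30 ± 0.05, adjusted p = 3.75e-04) and its difference between the doses (-0.48 ± 0.05, adjusted p = 2.34e-05) were called in all 14 alternatives, but its rise at the low dose (0.18 ± 0.05, adjusted p = 0.0206) was lost in 8 of them, among them leaving out any 1 of the control or 0.1 µg/ml libraries, with an adjusted p of up to 0.15. E2f3 was higher at 0.5 µg/ml (0.23 ± 0.05, adjusted p = 0.00258, up to 0.251 on the TPM scale), and E2f1 was not called at either dose (-0.10 ± 0.09 and 0.12 ± 0.09).

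**Figure D4:**
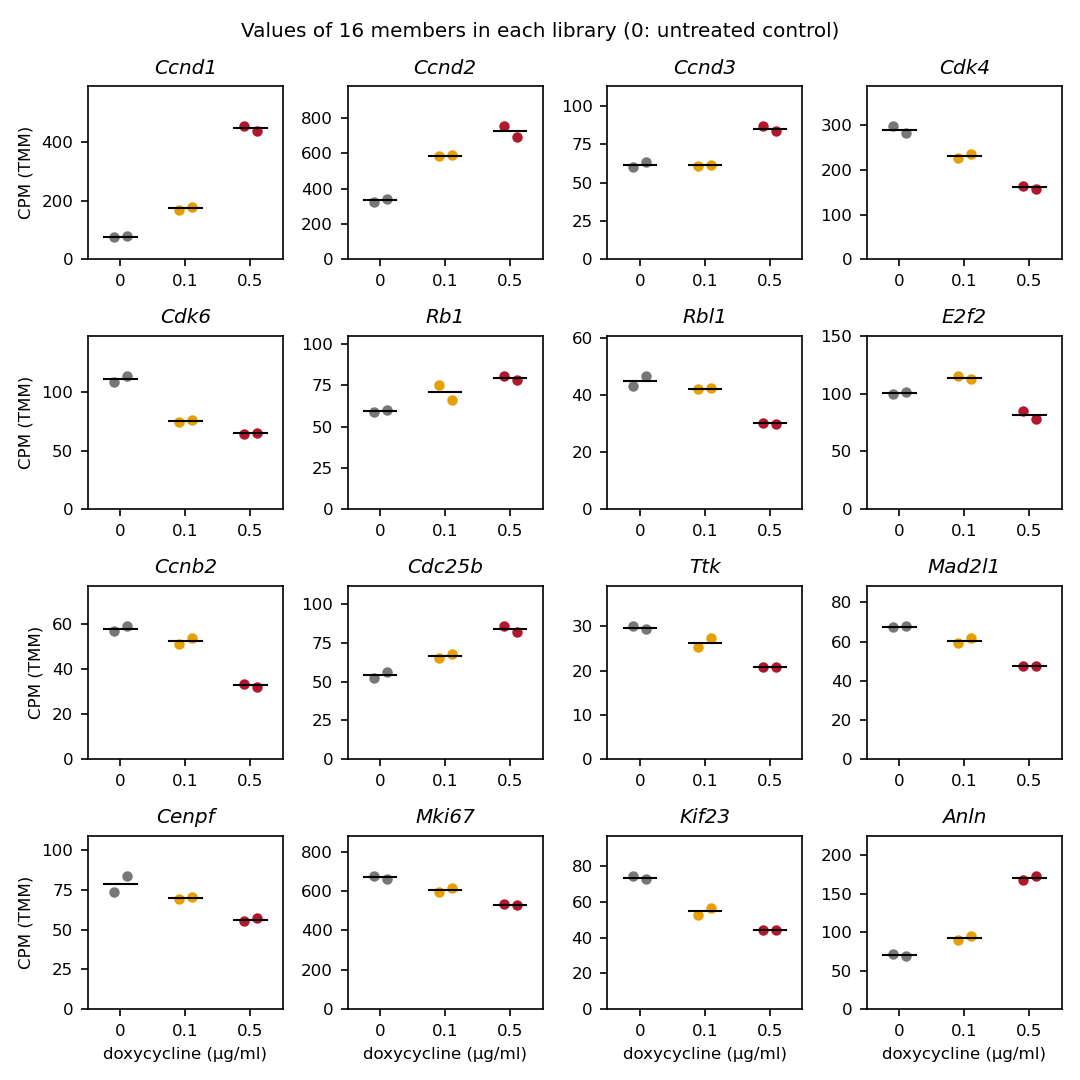
TMM-scaled CPM of 16 genes in each library against the doxycycline dose in µg/ml, with 0 for the control group, points for libraries and a line at the mean of 2. Axes start at 0. Ccnd1, Ccnd2, Rb1, Cdc25b and Anln climb with dose, E2f2 is highest at 0.1 µg/ml, Ccnd3 is higher only at 0.5 µg/ml, and the other 9 are lowest at 0.5 µg/ml.

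The G2/M group held the largest fall of the later genes. Of its 7 genes, 5 fell and 1 rose at 0.5 µg/ml, which is 71.4% and 14.3%, beside 33.1% and 34.4% of all genes tested. Ccnb2, the B-type cyclin that is associated with the Golgi, was at 56.9 and 59.3 CPM in control, 51 and 53.8 CPM at 0.1 µg/ml and 33.6 and 32.3 CPM at 0.5 µg/ml. It fell by 0.82 ± 0.05 on the log2 scale at 0.5 µg/ml (1.76-fold lower, edgeR adjusted p = 3.88e-07), and its lower level at 0.1 µg/ml was called narrowly (-0.15 ± 0.05, adjusted p = 0.0399) and lost in 7 of 14 alternatives, among them leaving out the second control or the first 0.1 µg/ml library, with an adjusted p of up to 0.199. Ccnb1, the main mitotic B-type cyclin, was close to control at both doses and was not called (0.02 ± 0.05 and -0.10 ± 0.05). Cdk1, the kinase that both cyclins activate, went from 84.3 and 89.9 CPM to 63.8 and 66.4 CPM at 0.5 µg/ml (-0.42 ± 0.05, 1.34-fold lower, adjusted p = 4.76e-05). Ccna2 (cyclin A2) fell by 0.27 ± 0.04 on the log2 scale (adjusted p = 1.65e-04), Foxm1, the transcription factor of G2/M genes, by 0.47 ± 0.06 (adjusted p = 3.98e-05), and Cdc25c by 0.30 ± 0.07 (adjusted p = 0.00337).

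Cdc25b, a phosphatase that starts the activation of Cdk1, was the only gene of the G2/M group called higher. It was at 52.5 and 56.1 CPM in control, 65.2 and 67.9 CPM at 0.1 µg/ml and 86.1 and 82.2 CPM at 0.5 µg/ml. The groups did not overlap, and the log2 fold change was 0.29 ± 0.05 at 0.1 µg/ml (edgeR adjusted p = 0.00177) and 0.63 ± 0.05 at 0.5 µg/ml (1.55-fold, adjusted p = 2.58e-06). At 0.5 µg/ml the 3 Cdc25 genes thus did not move together. Cdc25c fell, and the rise of Cdc25a was smaller (0.19), with a call that was lost in 4 of 14 alternatives. Cdc25b shares exon positions with Spef1 on the opposite strand, which fell, from a mean of 19 CPM in control to 11.2 CPM at 0.5 µg/ml.

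Of the 10 mitotic kinases and genes of the checkpoint and the anaphase-promoting complex, 6 fell and 1 rose at 0.5 µg/ml. These are 60% lower and 10% higher, beside 33.1% and 34.4% of all genes tested. The 2 largest falls were in the spindle checkpoint. Ttk (the checkpoint kinase Mps1) was at 30.1 and 29.3 CPM in control, 25.3 and 27.3 CPM at 0.1 µg/ml and 20.7 and 20.8 CPM at 0.5 µg/ml (-0.52 ± 0.06, 1.43-fold lower, edgeR adjusted p = 2.79e-05). Mad2l1, which binds and blocks Cdc20, was at 67.3 and 68 CPM in control, 59.2 and 61.7 CPM at 0.1 µg/ml and 47.6 CPM in both libraries at 0.5 µg/ml (-0.51 ± 0.04, 1.42-fold lower, adjusted p = 4.45e-06). The groups of both genes did not overlap, but the calls at 0.1 µg/ml (-0.18 for Ttk, adjusted p = 0.0346, and -0.16 for Mad2l1, adjusted p = 0.0163) were lost without the first 0.1 µg/ml library, that of Ttk also without the first control library, with an adjusted p of up to 0.201 and 0.101. The checkpoint kinases Bub1 and Bub1b were lower too, by -0.31 ± 0.04 (adjusted p = 1.54e-04) and -0.46 ± 0.05 (adjusted p = 1.34e-05), so all 4 checkpoint genes of the group fell at 0.5 µg/ml.

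The kinases of mitotic entry and the anaphase genes moved less. Plk1 (polo-like kinase), Aurkb (Aurora B) and Cdc20, the activator of the anaphase-promoting complex, were not called at either dose, with log2 fold changes of -0.08 ± 0.05, -0.11 ± 0.06 and -0.08 ± 0.05 at 0.5 µg/ml. Birc5 (survivin), the partner of Aurora B, fell by 0.23 ± 0.05 (edgeR adjusted p = 0.00325), and Ube2c, the ubiquitin-conjugating enzyme of the anaphase-promoting complex, by 0.26 ± 0.06 (adjusted p = 0.00301). Aurka (Aurora A), described after its values were seen, was the 1 gene of the group that rose: 60.7 and 65.6 CPM in control, 61.5 and 62.6 CPM at 0.1 µg/ml and 72 and 71.5 CPM at 0.5 µg/ml (0.18 ± 0.05, adjusted p = 0.00737). That call was lost in 7 of 14 alternatives, among them leaving out the first control library or either 0.5 µg/ml library, with an adjusted p of up to 0.385. With upper quartile scaling in place of TMM, Ccnb1, Plk1, Aurkb, Cdc20, Cenpe and Tpx2, which are the 6 later genes not called at 0.5 µg/ml, were all called lower. In that setting the median log2 fold change of all genes was -0.09, and 6592 of 16975 genes were called lower, against 5626 with TMM.

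Of the 5 chromosome and kinetochore genes 4 fell at 0.5 µg/ml and none rose. That is 80% lower, beside 33.1% lower and 34.4% higher among all genes tested. Cenpf, a kinetochore protein that accumulates in G2, was at 73.8 and 83.8 CPM in control, 68.9 and 70.7 CPM at 0.1 µg/ml and 55.4 and 57.1 CPM at 0.5 µg/ml (-0.49 ± 0.06, 1.40-fold lower, edgeR adjusted p = 6.40e-05). Mki67, the proliferation antigen that coats mitotic chromosomes, was at 678.6 and 661.5 CPM in control, 594.1 and 616.8 CPM at 0.1 µg/ml and 533.2 and 528.3 CPM at 0.5 µg/ml (-0.34 ± 0.04, 1.26-fold lower, adjusted p = 3.18e-05). Neither gene's groups overlapped. Cenpa, the centromeric histone, was lower by a smaller step (-0.19 ± 0.05, adjusted p = 0.00514). Top2a, the topoisomerase that untangles chromosomes, was at 308.4 and 374.6 CPM in control, and its fall to 288.3 CPM in both 0.5 µg/ml libraries (-0.24 ± 0.08, adjusted p = 0.0172) was lost without the second control library (-0.13, adjusted p = 0.0578) or without either 0.5 µg/ml library (adjusted p = 0.0552 and 0.0549). Cenpe, the kinetochore motor, was not called at either dose (-0.10 ± 0.04 and -0.05 ± 0.04).

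The spindle and cytokinesis genes held both the second largest fall of the later genes and their largest rise. Kif23, the motor of the centralspindlin complex in the spindle midzone, was at 74.6 and 72.6 CPM in control, 52.8 and 56.7 CPM at 0.1 µg/ml and 44.1 and 44.3 CPM at 0.5 µg/ml. Its fall of 0.43 ± 0.05 on the log2 scale at 0.1 µg/ml (1.35-fold lower, edgeR adjusted p = 1.16e-04) was the largest of the later genes at that dose, and at 0.5 µg/ml it was 0.74 ± 0.05 (1.67-fold lower, adjusted p = 6.42e-07). Anln (anillin), the scaffold of the contractile ring, was at 71.3 and 69.6 CPM in control, 90.3 and 94.6 CPM at 0.1 µg/ml and 168.2 and 173.5 CPM at 0.5 µg/ml. It rose by 0.39 ± 0.04 at 0.1 µg/ml (adjusted p = 1.28e-04) and 1.28 ± 0.04 at 0.5 µg/ml (2.43-fold, adjusted p = 6.38e-09), a larger fold change than that of Ccnd2 at that dose. Genes of the same step of division thus parted, Anln going from a mean of 70.4 to 170.8 CPM and Kif23 from 73.6 to 44.2 CPM. At 0.1 µg/ml the call of Anln was lost where limma was run on all genes above 0 TPM (adjusted p = 0.0519).

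The other spindle genes followed Kif23 to a smaller degree. Kif11, the motor that separates the spindle poles, fell by 0.49 ± 0.05 on the log2 scale at 0.5 µg/ml (edgeR adjusted p = 1.43e-05). Kif20a and Ect2, which act at the midzone and in recruiting the contractile ring, fell by 0.42 ± 0.06 (adjusted p = 1.91e-04) and 0.39 ± 0.05 (adjusted p = 1.10e-04). The microtubule bundlers Prc1 and Nusap1 fell by 0.25 ± 0.06 (adjusted p = 0.00456) and 0.19 ± 0.04 (adjusted p = 0.00247), and the spindle assembly factor Tpx2 was not called (-0.11 ± 0.05, adjusted p = 0.0563). In all, 6 of the 8 genes of this group fell and 1 rose, which is 75% and 12.5%, beside 33.1% and 34.4% of all genes tested. The call of Prc1 was lost where limma was run on all genes above 0 TPM (adjusted p = 0.0607).

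Control levels per length spread the 44 genes widely. Cdk4 was highest at 335.6 ± 16.5 TPM (SD, n = 2), followed by Ube2c at 156.6 ± 2.36 and Cdk1 at 134.1 ± 9.52 TPM, and the lowest were E2f1, Cenpf and E2f3 at 9.61 ± 0.481, 9.34 ± 0.389 and 8.64 ± 0.424 TPM. At 0.5 µg/ml Cdk4, Ccnd2 and Ccnd1 lay side by side on this scale, at 148 and 144.7, 147.1 and 137.6, and 139.6 and 139.5 TPM. The fall of Cdk4 was smaller in the counts (log2 fold change -0.85, against values down to -1.2 in the alternatives). In control the same genes were far apart, with Ccnd2 at 67.1 and 69.7 TPM and Ccnd1 at 25 and 26.9 TPM.

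Further genes of the same pathways, from lists outside the 44, were counted in the same way. Of 62 further mitotic genes tested, 33 fell and 6 rose at 0.5 µg/ml with a median log2 fold change of -0.16, and 20 fell and 2 rose at 0.1 µg/ml. These are 53.2% lower and 9.68% higher at 0.5 µg/ml, beside 33.1% and 34.4% of all genes tested, and 32.3% lower and 3.23% higher at 0.1 µg/ml, beside 13.8% and 20.8%. Of 15 further G1 and E2F pathway genes, 9 fell and 4 rose at 0.5 µg/ml with a median of -0.19, where the 14 earlier genes had a positive median. That is 60% lower and 26.7% higher, beside the same 33.1% and 34.4%. The largest falls were those of Tfdp2, a dimerisation partner of E2F factors (-1.12, from a mean of 46.2 to 21.3 CPM), the kinetochore gene Cenpk (-1.02, from 4.45 to 2.19 CPM) and the spindle motor Kif15 (-0.86, from 59.4 to 32.8 CPM). The largest rises were those of Mybl2 (B-Myb, 1.08, from 58.4 to 123.5 CPM) and Lin37 (0.94, from 12.2 to 23.4 CPM), which both belong to MuvB-type complexes, and of Fbxw7, which targets cyclin E for destruction (0.91, from 17.1 to 32.3 CPM). Lin9 and Lin52, which belong to the same complexes, were not called at 0.5 µg/ml (-0.12 and -0.11, edgeR adjusted p = 0.141 and 0.405).

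Calls at 0.5 µg/ml were mostly stable. Of the 10 rises, 6 held in all 14 alternatives (Ccnd1, Ccnd2, Ccnd3, Rb1, Cdc25b and Anln), and of the 25 falls 23 did, with Top2a and Prc1 as the exceptions. Of the calls between the doses, 4 of 9 rises (Ccnd1, Ccnd2, Ccnd3 and Anln) and 15 of 27 falls held in all 14. Exons of 19 of the 44 genes overlap those of another gene, 17 of them on the opposite strand. No source used here gives the strand setting of the counting, so how far reads of such pairs were kept apart is not known. Ccnd1 is one of them: its neighbour LTO1 was at a mean of 12.1 CPM in control and 15 CPM at 0.5 µg/ml. Ccnd3 is another, and its neighbour Bysl rose from a mean of 42.7 CPM in control to 70.2 CPM at 0.5 µg/ml.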

How the data were processed

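RNA was sequenced from 6 organoid libraries, 2 in each of 3 groups, as strand-specific poly-A libraries, per the labels' protocols. Tools named in the submitters' processing notes are STAR 2.7.3a, RSEM 1.3.3, Trim Galore and FastQC; the notes list both GRCm39 and mm10 as builds, and which one these tables use is not given in the sources, so no coordinates are given for the genes themselves. Expected counts, estimated by RSEM and not always whole, were deposited by the authors as 1 table. TPM values were deposited by the authors as another, for the same genes and libraries, and carry no depth. RSEM splits reads shared between genes.

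Symbols came from GENCODE M21 for 52083 of the 55416 identifiers (94.0%). Expected counts were rounded. Genes kept by edgeR's filterByExpr by group (16975, with 99.96% of counts) entered 1 quasi-likelihood fit of all 6 libraries in edgeR 4.0.16 (R 4.3.3), with a mean per group, no covariate, TMM factors of 0.964 to 1.04 and 3 residual degrees of freedom. Tests were two-sided with Benjamini-Hochberg adjustment over all genes tested at 0.05. Standard errors were derived from the F statistic. DESeq2 1.42.0, upper quartile scaling, a filter of 1 count, a fit of only the groups compared, a replicate block, each library left out in turn, and limma 3.58.1 on log2(TPM + 1), log2(TPM + 0.1) and without the filter at 1 TPM were the 14 alternatives. The fit was first tested on simulated data.

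The 44 genes and all lists were chosen with earlier results of these data known. Any of the 44 could be named. Values in every library were given for the 3 D-type cyclins, for the 2 largest absolute log2 fold changes of each role group at 0.5 µg/ml, for the 2 smallest adjusted p at 0.1 µg/ml and for genes called in opposite directions at the 2 doses; of the other pathway genes, the 3 largest called changes in each direction at 0.5 µg/ml were named. Library values of other genes, among them Cdk4, Cdk6 and Aurka, were added after seeing them. Mad1l1, Bub3, Lin9 and Lin52 were also named after their values were seen. Promoters are from RefSeq (GRCm38.p6), matched by symbol. Replicates differed by more than sampling noise, with a chi-square per degree of freedom of 9.38 in control, 8.95 at 0.1 µg/ml and 8.32 at 0.5 µg/ml.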

Additional observations from a re-analysis of the deposited data

How the results depend on the processing

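Over the single-gene results of the 44 genes, 1632 alternative values stayed on the same side of the threshold, 175 lost a call and 41 gained one. No value called in either setting changed sign, but uncalled values near 0 did, such as the log2 fold change of Aurkb at 0.1 µg/ml, which ran from -0.05 to 0.11. Counts of calls moved most at 0.1 µg/ml and on the TPM scale. The 7 higher calls at 0.1 µg/ml became 4 with limma on log2(TPM + 1), 4 on log2(TPM + 0.1) and 2 on all genes above 0 TPM, and 4 to 7 with a library left out. The 12 lower calls became 3 on all genes above 0 TPM and 4 to 12 with a library left out. At 0.5 µg/ml the 10 higher calls became 6 in all 3 TPM settings, and between the doses the 9 higher calls became 5, 5 and 4. With a library left out, the counts were 9 to 10 higher and 24 to 26 lower at 0.5 µg/ml, and 7 to 10 higher and 18 to 27 lower between the doses.

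The median log2 fold change of the 14 G1, E2F and pocket protein genes at 0.1 µg/ml (0.08) turned to -0.01 in the 3 TPM settings and was 0.01 to 0.09 with a library left out, lowest without the second 0.1 µg/ml library. At 0.5 µg/ml it went from 0.15 to 0.06 with upper quartile scaling and 0.05 in the TPM settings. For the 30 later genes it was -0.15 to -0.07 at 0.1 µg/ml with a library left out. At 0.5 µg/ml it went from -0.27 to -0.36 with upper quartile scaling, to -0.36, -0.37 and -0.36 in the TPM settings, and to between -0.32 and -0.27 with a library left out, and between the doses from -0.19 to -0.24 with upper quartile scaling and on log2(TPM + 0.1). The cause of these shifts was not tested. The median of all genes at 0.5 µg/ml was -0.09 with upper quartile scaling. It was -0.08 on log2(TPM + 1), -0.09 on log2(TPM + 0.1) and 0.00 on all genes above 0 TPM. Each of the 44 genes had at least 663 counts in a library, and the part of counting in the spread of single genes was not tested. Where 1 library was left to a group, it was assumed to vary like the other groups.

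With the replicate number as a block (replicate block), the 44 genes had 7 higher and 10 lower calls at 0.1 µg/ml, 10 and 25 at 0.5 µg/ml, and 8 and 26 between the doses. The numbers were not shown to pair the libraries: same-numbered deviations correlated at -0.142 between control and 0.1 µg/ml, 0.131 between control and 0.5 µg/ml and -0.03 between the doses, across 16975 genes that are not independent replicates.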
